A study of Mus musculus with 6 samples.

Results

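The genes of glycogen synthesis and breakdown were followed in mouse adipocytes given a short hairpin RNA against Zc3h10. They were Gys1, Gys2, Gbe1, Pygl, Pygb, Pygm, Ppp1r3b, Ppp1r3c and Ugp2, which makes 9 of the 21996 genes that a probe set with a single symbol named on the array. The genes were listed by symbol, and a gene with more than 1 probe set was represented by its brightest, by mean over all 6 arrays. That choice did not use the groups. The list itself was drawn up with earlier results of these arrays known, among them the fall of Gys2, so its counts are a description.

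Total RNA was hybridised to single-colour Affymetrix arrays, 1 per culture. The cells were C3H10T1/2 cells, a mouse mesenchymal line, made into adipocytes over 9 days of differentiation. In 3 biological replicates an adenovirus carried a hairpin that targets Zc3h10, a CCCH zinc finger protein gene, under the U6 promoter (Zc3h10 shRNA), and in 3 it carried a scrambled hairpin (scramble). Every culture, scramble included, had been exposed to virus for 72 h at a multiplicity of infection of 50, and 1 hairpin sequence per group in 1 cell line limits what the groups can stand for.

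Glycogen is a branched store of glucose. UDP-glucose is made by the enzyme of Ugp2, glycogen synthase adds its glucose to growing chains, and the branching enzyme moves chain ends to new branch points, while glycogen phosphorylase removes glucose from the ends. Protein phosphatase 1, brought to the granule by targeting subunits, activates the synthase and inactivates the phosphorylase. Fat cells hold only a small glycogen store, which turns over with feeding and fasting.

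Values are probe set intensities on a linear scale, and each log2 change is the Zc3h10 shRNA mean less the scramble mean, given with its standard error (SE) from a limma fit over all 33079 probe sets. A gene was called changed at an adjusted p under 0.05 (Benjamini-Hochberg over all probe sets). A probe set was taken as above background when its mean log2 intensity exceeded 4.37, or 20.7 intensity units, the upper end of the middle 95% of levels among 1379 sensory receptor genes (olfactory and vomeronasal). Median array intensities were 15.7 to 16.1 for Zc3h10 shRNA and 15.6 to 15.7 for scramble, and 3 arrays per group limit the precision. Zc3h10 itself averaged 26.1 ± 3.72 intensity units on Zc3h10 shRNA arrays and 33.4 ± 6.77 on scramble arrays (SD, n = 3 each), a log2 change of −0.34 ± 0.17 that did not pass (limma, adjusted p = 0.301), and its groups overlapped. Where directions are given below, they are therefore those of the arrays labelled Zc3h10 shRNA.

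In the Zc3h10 shRNA adipocytes, the glycogen synthase gene Gys2, the branching enzyme gene Gbe1 and the targeting subunit gene Ppp1r3c fell to 14.8%, 36.6% and 40.7% of their scramble levels. Gys1 and Pygb fell by smaller amounts. Ugp2 and Pygm were close to their scramble levels, Pygl was at 70.7% without passing the test, and the 2 probe sets of Ppp1r3b disagreed in direction. In all, 5 of the 9 genes fell and 0 rose (limma, also 0 at an unadjusted p under 0.05), where 6.60% of all named genes fell and 5.51% rose. The median log2 change was −0.50 over the 9 genes and 0.01 over all named genes. That median is the value of the dim gene Pygl, and with 32 units added before log2 it was −0.30 over the 9 genes and 0.00 over all named genes. In bulk RNA, fewer adipocytes and less of a transcript per adipocyte cannot be told apart.

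**Figure D1:**
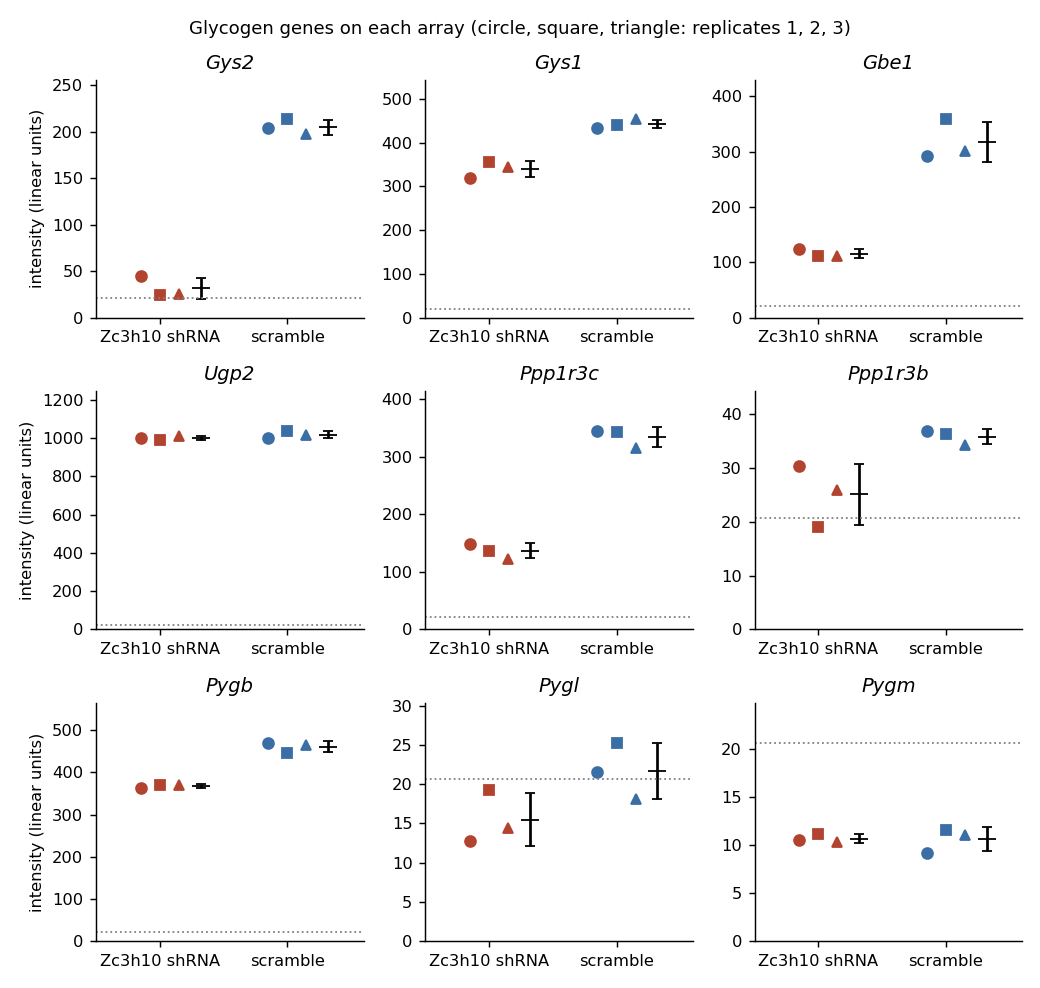
Intensity (linear units, each panel from 0) of the 9 glycogen genes on the 3 Zc3h10 shRNA arrays (red, left) and the 3 scramble arrays (blue, right); symbols mark replicates, black bars the mean ± SD, and the dotted line the background limit of 20.7. Gys2, Gbe1 and Ppp1r3c show the widest gaps between groups relative to their levels, and Pygm lies under the limit on every array.

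Gys2 encodes the glycogen synthase known as the liver form. It had 44.9, 24.5 and 25.4 intensity units on Zc3h10 shRNA arrays 1 to 3, against 204, 213 and 197 on scramble arrays 1 to 3. The groups were far apart, and within the Zc3h10 shRNA group replicate 1 stood above the others, which lay just over the background limit. The change was −2.76 ± 0.22 on the log2 scale, or 14.8% of scramble with 95% confidence limits of 10.5 and 20.9% (limma, adjusted p = 0.000678). It was the fall ranked 3 among 21996 genes. The size of the change depended on the offset, and with 32 units added before log2 it was −1.91 (limma, adjusted p = 0.000632).

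Gys1, the synthase gene known as the muscle form and expressed in most tissues, was read at 320, 356 and 345 units on Zc3h10 shRNA arrays, against 433, 441 and 453 on scramble arrays. The groups did not overlap. The change was −0.38 ± 0.09 (limma, adjusted p = 0.0306), to 76.8% of the scramble level, so both synthase genes fell. The difference between the sizes of these falls was not tested. Gys1 missed the threshold whichever of the 6 arrays was left out, with log2 changes of −0.41 to −0.34 and adjusted p of 0.0604 to 0.102 (limma).

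Gbe1, the branching enzyme gene, had 125, 111 and 111 intensity units on Zc3h10 shRNA arrays, against 292, 358 and 301 on scramble arrays. All Zc3h10 shRNA values were under the lowest scramble value. The log2 change was −1.45 ± 0.11, 2.74-fold lower (limma, adjusted p = 0.000658), the fall ranked 70 of 21996. Scramble replicate 2 was the highest array for this gene, and the change was −1.51 to −1.36 with any 1 array left out.

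Ugp2, which supplies UDP-glucose to the synthase, was at 1000, 988 and 1009 units on Zc3h10 shRNA arrays, against 1001, 1037 and 1015 on scramble arrays. These groups overlapped. The log2 change of −0.03 ± 0.08 did not pass (limma, adjusted p = 0.901), and its 95% confidence interval ran from 86.3 to 112% of the scramble level, which leaves out a fall of the size seen for Gbe1.

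Ppp1r3c encodes the targeting subunit called protein targeting to glycogen, which binds phosphatase 1, the synthase and the phosphorylase. It had 149, 137 and 123 intensity units on Zc3h10 shRNA arrays, against 345, 343 and 315 on scramble arrays. The groups did not overlap. The change was −1.30 ± 0.10, 2.46-fold lower (limma, adjusted p = 0.000674), the fall ranked 114 of 21996 genes.

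Ppp1r3b, the targeting subunit gene known from liver, was read by 2 probe sets that disagreed. The brighter one had 30.3, 19.0 and 26.0 units on Zc3h10 shRNA arrays, against 36.9, 36.4 and 34.2 on scramble arrays, and although the groups did not overlap, its log2 change of −0.54 ± 0.16 did not pass (limma, adjusted p = 0.085). It passed without Zc3h10 shRNA replicate 1, at −0.69 (limma, adjusted p = 0.0362), and when the dimmer probe sets, under the median, were dropped (adjusted p = 0.0416). The other probe set had 30.1, 25.8 and 21.9 units on Zc3h10 shRNA arrays, against 26.0, 23.2 and 22.4 on scramble arrays, a change of 0.11 ± 0.13 (limma, adjusted p = 0.708) with overlapping groups. No direction can therefore be given for Ppp1r3b.

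The sequences upstream of Gbe1, Ppp1r3c, Gys1 and Pygb are shown because these genes fell and have an entry in the RefSeq promoter table of GRCm38.p6. They cover the 250 bases before the annotated start on the gene's strand, at chr16:70313699-70313948 on the plus strand for Gbe1, chr19:36736605-36736854 on the minus strand for Ppp1r3c, chr7:45434589-45434838 on the plus strand for Gys1 and chr2:150786546-150786795 on the plus strand for Pygb. Capitals mark matches on either strand to the E-box CACGTG, the core ACGTG that many E-box and hypoxia response sites share, the nuclear receptor half-site AGGTCA and the CCAAT box. Of 9 genes, 7 had an entry, with 8 windows in all, and Gys2 and Ppp1r3b are named only.
Gbe1: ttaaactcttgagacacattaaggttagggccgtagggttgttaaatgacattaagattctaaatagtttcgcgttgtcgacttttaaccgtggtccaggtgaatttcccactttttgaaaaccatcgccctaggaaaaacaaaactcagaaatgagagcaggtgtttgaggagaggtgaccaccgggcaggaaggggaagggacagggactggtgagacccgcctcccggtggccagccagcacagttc
Ppp1r3c: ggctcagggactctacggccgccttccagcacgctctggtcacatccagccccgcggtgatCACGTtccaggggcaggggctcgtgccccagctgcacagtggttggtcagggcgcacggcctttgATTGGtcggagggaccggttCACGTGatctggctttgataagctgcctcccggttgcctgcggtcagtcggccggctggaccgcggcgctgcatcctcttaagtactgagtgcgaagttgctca
Gys1: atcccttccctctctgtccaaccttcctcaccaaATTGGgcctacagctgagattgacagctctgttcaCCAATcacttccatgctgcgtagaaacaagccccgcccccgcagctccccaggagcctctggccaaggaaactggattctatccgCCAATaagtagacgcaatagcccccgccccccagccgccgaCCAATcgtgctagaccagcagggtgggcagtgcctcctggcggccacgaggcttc
Pygb: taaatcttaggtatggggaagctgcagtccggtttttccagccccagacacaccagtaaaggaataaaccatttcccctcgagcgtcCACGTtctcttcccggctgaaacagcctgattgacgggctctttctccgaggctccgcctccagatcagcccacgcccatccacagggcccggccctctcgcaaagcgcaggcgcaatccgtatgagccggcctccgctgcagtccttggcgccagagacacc

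The Gbe1 window held none of these letters, which says nothing about which factors act there. The Ppp1r3c window held 1 E-box beginning 104 bases before the start, which also counts as 2 overlapping ACGTG matches, a further ACGTG match at 189 and 1 CCAAT match at 124. The Gys1 window held 4 CCAAT matches, at 216, 181, 96 and 55 bases before the start, and the Pygb window 1 ACGTG match at 163. Among 32851 windows of the same length, 6.02% held the E-box, 16.6% the ACGTG core, 14.0% the half-site and 33.8% the CCAAT box. Ppp1r3c thus shared the CCAAT box with Gys1 and the ACGTG core with Pygb. The core also stood in the windows of Pygl and Pygm and in 1 of 2 windows of Ugp2, which held a CCAAT match too, and none of these 3 genes passed the test. Each match is a description of the sequence and not a binding site.

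Of the phosphorylase genes, Pygb, the form known from brain and present in many tissues, was the bright one against background. It had 362, 371 and 371 intensity units on Zc3h10 shRNA arrays, against 471, 447 and 465 on scramble arrays, without overlap. The change was −0.32 ± 0.08, 1.25-fold lower (limma, adjusted p = 0.0447), and it missed the threshold whichever of the 6 arrays was left out (limma, adjusted p = 0.100 to 0.129) and with quantile scaling (limma, adjusted p = 0.0708).

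Pygl, the phosphorylase gene known from liver, had 12.7, 19.2 and 14.4 units on Zc3h10 shRNA arrays, against 21.6, 25.3 and 18.1 on scramble arrays. The groups overlapped, the Zc3h10 shRNA mean log2 of 3.93 lay under the background limit, and the scramble mean of 4.42 barely exceeded it. The change of −0.50 ± 0.18 did not pass (limma, adjusted p = 0.14). Pygm, the muscle phosphorylase gene, was under the limit in both groups, at 9.22 to 11.6 units over all 6 arrays, so no difference was detectable (log2 change 0.01 ± 0.11, limma, adjusted p = 0.98).

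**Figure D2:**
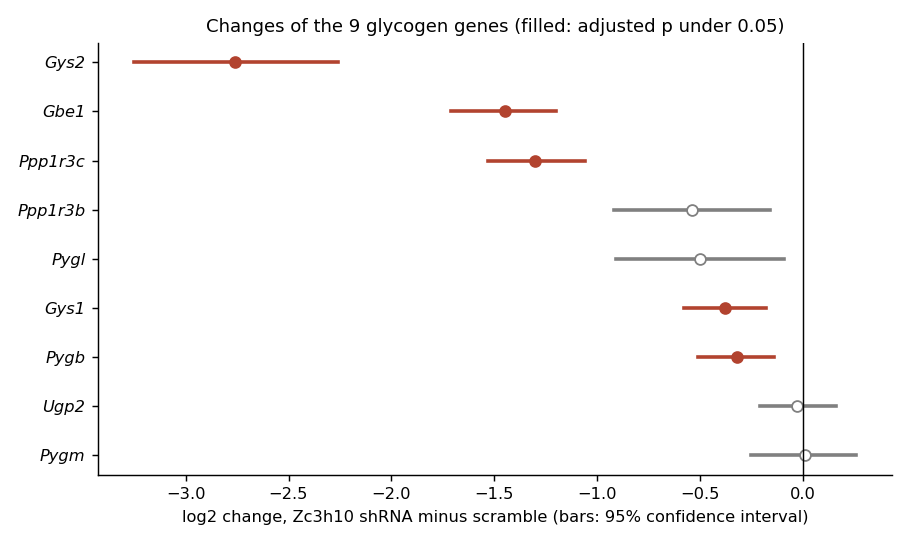
Log2 change (Zc3h10 shRNA minus scramble) of the 9 glycogen genes with 95% confidence intervals from the limma fit; filled red points passed an adjusted p of 0.05 and open grey points did not. Gys2 (−2.76), Gbe1 (−1.45) and Ppp1r3c (−1.30) lie apart from the other 6 genes, whose changes run from −0.54 (the brighter probe set of Ppp1r3b) to 0.01.

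By the brightest probe set of each of the 9 genes, the Zc3h10 shRNA values lay under the scramble values without overlap for 6, or for 5 of the 8 genes other than Ppp1r3b, where 15.2% of named genes did so. The calls of 3 falls were kept whichever array was left out, those of Gys2 (−3.04 to −2.60), Gbe1 (−1.51 to −1.36) and Ppp1r3c (−1.36 to −1.23), with the largest adjusted p at 0.00603 for each (limma). The count of 5 became 3 without any single array other than Zc3h10 shRNA replicate 1. Without that replicate it was 4 with Ppp1r3b, counted by its brighter probe set alone, and 3 without Ppp1r3b.

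Zc3h10 shRNA replicate 1 kept more of the Gys2 transcript than replicates 2 and 3. Set against the scramble mean, Gys2 was at −2.19, −3.07 and −3.01 log2 units on Zc3h10 shRNA arrays 1 to 3. Gbe1 was at −1.33, −1.51 and −1.51 and Ppp1r3c at −1.17, −1.28 and −1.44, so replicate 1 was the mildest of the group for these genes too. For Gys1, at −0.47, −0.31 and −0.36, replicate 1 had the lowest value instead.

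**Figure D3:**
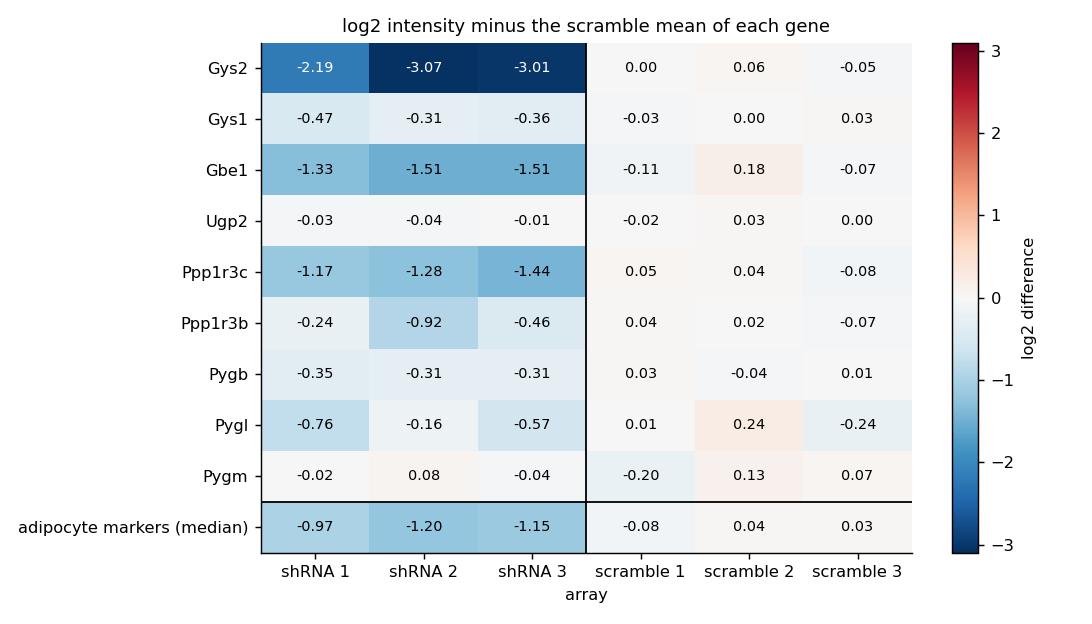
Log2 intensity on each array minus the scramble mean of that gene, for the 9 glycogen genes (rows) and, under the line, the median over 9 adipocyte markers; Zc3h10 shRNA arrays are left of the vertical line and scramble arrays right of it. Gys2 is at −2.19 on Zc3h10 shRNA array 1 and at −3.07 and −3.01 on the others, and the adipocyte markers are at −0.97, −1.20 and −1.15.

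Markers of the mature adipocyte were lower on the same arrays as the glycogen genes that fell. Of 9 measured markers, 8 fell (limma, adjusted p of 0.000658 to 0.00431), where 6.60% of all named genes fell. The median log2 change of the 9 markers was −1.16, and Lep was under the background limit. Their summed intensity was 9446 to 10324 on Zc3h10 shRNA arrays and 17330 to 19061 on scramble arrays. Their part in the changes of the glycogen genes was not tested. Ugp2 was at 98.2% of its scramble level on the same arrays.

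Gys2 and Pygl are known from liver and Gys1 and Pygm from muscle, so markers of those cells were read too. Of 9 hepatocyte markers, 0 exceeded the background limit on Zc3h10 shRNA arrays and 1 (Apoa1, at 21.6 units) on scramble arrays, with albumin, Alb, at 7.54 units on Zc3h10 shRNA arrays and 7.91 on scramble arrays. Of 10 skeletal muscle markers, 5 exceeded it in each group, but not the creatine kinase gene Ckm or the myosin genes Myh1 and Myh4, and their summed intensity was 256 to 301 on Zc3h10 shRNA arrays and 340 to 365 on scramble arrays. Of these 10 markers, only the myoglobin gene Mb passed, and it fell (−1.30 ± 0.13; limma, adjusted p = 0.00103). Mb averaged 52.6 units on Zc3h10 shRNA arrays and 129 on scramble arrays, while the median log2 change of the 10 was 0.02. Among 10 macrophage markers, 2 exceeded the limit in each group. Among 9 fibroblast and progenitor markers, Pdgfrb (0.75 ± 0.12) and Prrx1 (0.80 ± 0.09) rose and Pdgfra (−0.66 ± 0.10) fell. Of all named genes, 5.51% rose and 6.60% fell. The summed intensities of these 9 markers were 6117 to 6418 on Zc3h10 shRNA arrays and 4790 to 5425 on scramble arrays. The part of these markers was not tested either.

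The other measured genes of the glycogen pathway went both ways. Of 28 such genes, 6 fell and 3 rose, with a median log2 change of 0.00, where 12.1% of all named genes changed. Of the 3 rises, only that of Pgm2 kept its call whichever array was left out. Of the 6 falls, all but that of Ppp1r3d did. The glycogenin gene Gyg, whose protein primes each new granule, had 412, 408 and 368 units on Zc3h10 shRNA arrays, against 579, 710 and 613 on scramble arrays. Its groups did not overlap, and it fell by 0.68 ± 0.11 (limma, adjusted p = 0.00655). Pgm2, of the phosphoglucomutase family, rose by 0.56 ± 0.09 (limma, adjusted p = 0.00803), and Pgm2l1, which makes glucose 1,6-bisphosphate, was at −0.39 ± 0.14 without passing (limma, adjusted p = 0.15).

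Phosphorylase kinase activates phosphorylase, and genes of its alternative alpha subunits changed in opposite directions. Phka2, the subunit gene known from liver, had 261, 215 and 242 intensity units on Zc3h10 shRNA arrays, against 382, 393 and 422 on scramble arrays, and fell by 0.74 ± 0.10 (limma, adjusted p = 0.00386). Phka1, the subunit gene known from muscle, had 131, 131 and 127 units on Zc3h10 shRNA arrays, against 84.6, 103 and 104 on scramble arrays, and rose by 0.43 ± 0.11 (limma, adjusted p = 0.0414). Neither gene's groups overlapped. The call of Phka1 was lost whichever array was left out (limma, adjusted p = 0.0697 to 0.116), with median scaling (0.0508) and with the ordinary t statistic (0.106). The beta subunit gene Phkb and the gamma subunit genes Phkg1 and Phkg2 were at 0.17, −0.09 and −0.23 and did not pass.

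Of 7 genes of phosphatase 1 and its other glycogen-targeting subunits, 2 fell and 0 rose. Among all named genes, 6.60% fell and 5.51% rose. Only 3 of the 7 were above background, in each group. The catalytic subunit gene Ppp1ca averaged 1262 ± 61.6 units on Zc3h10 shRNA arrays and 1890 ± 105 on scramble arrays (SD, n = 3 each), a change of −0.58 ± 0.09 (limma, adjusted p = 0.00615). Ppp1cb, the other measured catalytic subunit gene, had 1177, 1031 and 1189 units on Zc3h10 shRNA arrays, against 940, 969 and 920 on scramble arrays. Its groups did not overlap, but the change of 0.26 ± 0.09 did not pass (limma, adjusted p = 0.144). Ppp1cb passed with the offset of 32 (limma, 0.0389) and with a prior that followed intensity (limma, 0.0217), and under no other alternative. The targeting subunit gene Ppp1r3d was at −0.65 ± 0.14 (limma, adjusted p = 0.0261), but missed without scramble replicate 2 or 3 or Zc3h10 shRNA replicate 2 or 3 (limma, adjusted p of 0.0853 to 0.0929) and with the ordinary t statistic (0.134). The targeting subunit genes Ppp1r3a, Ppp1r3e, Ppp1r3f and Ppp1r3g were not above background, so their levels could not be compared.

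Among 9 genes of kinases that phosphorylate glycogen synthase or of their subunits, 2 fell and 1 rose. Of all named genes, 6.60% fell and 5.51% rose. The falls were those of Prkag1 (−0.80 ± 0.10; limma, adjusted p = 0.00214) and Prkag2 (−0.60 ± 0.09; limma, adjusted p = 0.00529), regulatory gamma subunits of AMP-activated protein kinase. The catalytic subunit genes of that kinase, Prkaa1 and Prkaa2, were at 0.26 ± 0.10 and 0.10 ± 0.11, and the beta subunit genes Prkab1 and Prkab2 at −0.02 and 0.12. None of these passed, though Prkaa1 was higher on Zc3h10 shRNA arrays without overlap (limma, adjusted p = 0.202). Gsk3b, the gene of a kinase that inactivates the synthase, had 1145, 1260 and 1355 units on Zc3h10 shRNA arrays, against 955, 933 and 950 on scramble arrays. The groups did not overlap and it rose by 0.40 ± 0.09 (limma, adjusted p = 0.0335). Gsk3b kept its call without Zc3h10 shRNA replicate 1 (limma, adjusted p = 0.0303) and lost it without any other single array (0.0811 to 0.115) and with the ordinary t statistic (0.0641). The genes of laforin and malin, which guard glycogen structure, were dim: Epm2a was at −0.32 ± 0.14 and Nhlrc1 at 0.02 ± 0.12, and neither passed. Of the lysosomal arm, the acid glucosidase gene Gaa was at 0.30 ± 0.09 and did not pass (limma, adjusted p = 0.0908), though its groups did not overlap. Gaa passed with the offset of 32 (limma, 0.0212), with a prior that followed intensity (0.0224) and when probe sets under the median were dropped (0.0304). The glycogen-binding Stbd1 was at −0.25 ± 0.15 (limma, adjusted p = 0.388).

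Of 9 genes of glucose entry and release, 3 fell and 0 rose (limma), where 6.60% of all named genes fell and 5.51% rose. The hexokinase gene Hk1, at 0.32 ± 0.09, was higher at an unadjusted p of 0.00594 (limma, adjusted p = 0.0571), and it passed under 6 alternatives, among them quantile scaling (0.0418) and the ordinary t statistic (0.043). The insulin-responsive transporter gene Slc2a4, also an adipocyte marker here, had 68.9, 50.2 and 58.8 units on Zc3h10 shRNA arrays, against 151, 183 and 178 on scramble arrays, and the hexokinase gene Hk2 had 139, 143 and 126 units, against 317, 379 and 361 on scramble arrays. Neither gene's groups overlapped, with changes of −1.53 ± 0.14 for Slc2a4 and −1.37 ± 0.10 for Hk2. The endoplasmic reticulum transporter of glucose 6-phosphate, Slc37a4, fell by 0.81 ± 0.10 (limma, adjusted p = 0.00253), while the glucose 6-phosphatase genes G6pc and G6pc2 were not above background and G6pc3 was at 0.01 ± 0.09.

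**Figure D4:**
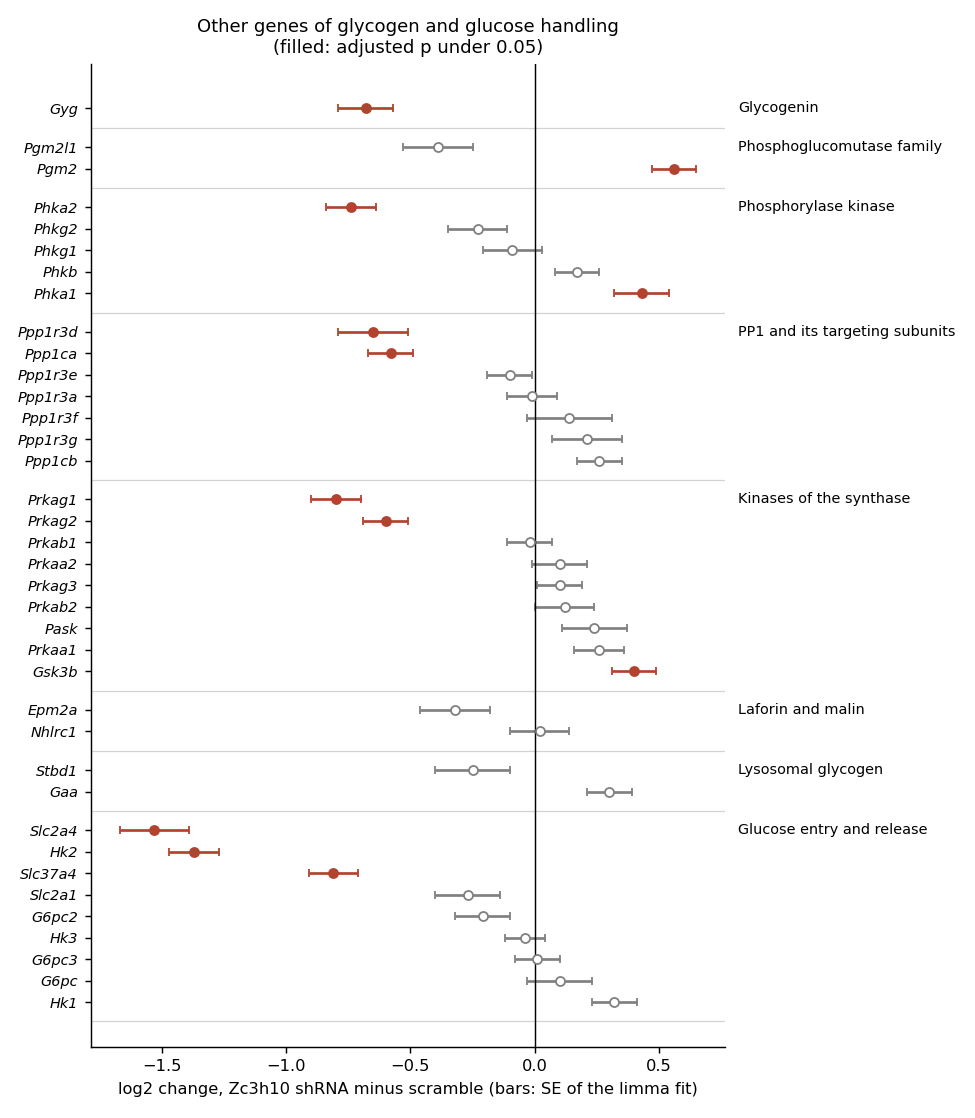
Log2 change (Zc3h10 shRNA minus scramble) with SE of 28 other glycogen genes and 9 genes of glucose entry and release, grouped by role; filled red points passed an adjusted p of 0.05 and open grey points did not. Slc2a4 (−1.53) and Hk2 (−1.37) lie furthest left and Pgm2 (0.56) furthest right.

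The genes whose 6 array values ran most like those of Gys2 were Klb, Tmem45b, Cidea, Abcd2 and H2-K1. They were taken from 10829 named genes above background by mean over all 6 arrays. Likeness was the root mean square difference between log2 values centred on each gene's own mean over the 6 arrays, and it was 0.15 for Klb, 0.19 for Tmem45b and for Cidea, 0.25 for Abcd2 and 0.26 for H2-K1. Klb, the co-receptor gene of endocrine fibroblast growth factors, had 21.9, 11.9 and 12.7 units on Zc3h10 shRNA arrays, against 90.8, 79.1 and 86.7 on scramble arrays, and the lipid droplet gene Cidea had 240, 139 and 139 units, against 798, 939 and 897 on scramble arrays. The difference between groups is part of this measure, so it favours genes with a fall about as large as that of Gys2. The log2 changes of the listed genes ran from −2.52 (Klb) to −2.27 (Abcd2). These genes were chosen for this likeness, so their array values are a description. The mean Klb level on Zc3h10 shRNA arrays was under the background limit, so Klb was counted above background through its scramble arrays. H2-K1 has close paralogs that can bind the same probes. The sizes of the changes of Klb and H2-K1 are therefore uncertain.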

How the data were processed

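The deposited values are intensities per probe set and array, linear and unpooled. Affymetrix Expression Console and Partek 6.6 are listed, with no role, by the submitters' processing notes. Not given in the sources used here are the background correction and the normalization. The unit was read from the values (2.56 to 13202). Such steps bear most on dim probe sets.

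Log2 of the intensities, with no pseudocount or further scaling, was fitted for 33079 probe sets with limma 3.58.1 in R 4.3.3 (lmFit, eBayes, two-sided, Benjamini-Hochberg). The 5% threshold is that of the series' design text. The code was tested on simulated data. Of the probe sets, 23043 had 1 gene symbol, 1740 several and 8296 none. No gene was named from a probe set with several symbols, so Pgm1, Gsk3a and Ppp1cc were not analysed here. The glycogen genes, the other lists and the tests were chosen with earlier results of these data known. All 9 glycogen genes are named. Other pathway genes are named if they passed, or as the 2 with the smallest p of their role. Further ones were named outside this rule, after their values were seen. These include Hk1, Ppp1cb, Phkb, Phkg1, Phkg2, Prkaa1, Prkaa2, Prkab1, Prkab2, G6pc3, Mb, Apoa1 and dim genes. The labels call the arrays biological replicates and do not say whether same-numbered arrays were paired, and the main fit did not pair them. Deviations from the group means correlated at 0.0845, −0.00464 and 0.0425 for same-numbered replicates 1 to 3, which cannot settle the pairing. Alternatives were other scalings, an offset of 32, the ordinary t statistic, other variance priors, filters on dim probe sets, a replicate block and each array left out. For the glycogen genes, the probe set with the smallest p was also tried.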

Additional observations from a re-analysis of the deposited data

How the results depend on the processing

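Of 752 single-gene values under the alternatives, 702 kept their side of the threshold, 37 lost the call, 13 gained it and 0 reversed. A reversal was counted only where the main fit or the alternative called the gene. Signs of uncalled genes could change, as for Pygm, at 0.01 in the main fit and −0.09 without scramble replicate 1. The falls of Gys2, Gbe1 and Ppp1r3c passed under all 16 alternative fits (largest adjusted p 0.0259, 0.02 and 0.0182, limma or the ordinary t statistic). A further alternative took the probe set with the smallest p of each glycogen gene. It returned the main fit for all 9 genes, so it tested nothing new, and its values are among the 752. The count of lower glycogen genes was 3 to 4 with 1 array left out and 3 with the replicate block, which dropped Gys1 (adjusted p = 0.069) and Pygb (0.104), and among the other genes Ppp1r3d (0.0691), Phka1 (0.078) and Gsk3b (0.0729); fewer residual degrees of freedom come with both. Whether the replicate numbers pair the arrays could not be settled from the values. Zc3h10 shRNA replicates 1 and 3 correlated best with the scramble array of their own number (0.0845 and 0.0425), and replicate 2 with scramble replicate 3 (0.0613). The 3 rises among the other glycogen and glucose genes became 1 with the replicate block, 1 to 2 with 1 array left out, 5 when probe sets under the median were dropped, and 6 with an offset of 32 or with an intensity trend in the prior, while their 9 falls stayed at 8 to 9 with 1 array left out. Over all probe sets, the 1812 falls and 1426 rises became 1057 and 915 with the ordinary t statistic, 1074 to 1473 and 733 to 1105 with 1 array left out, and the rises 2156 with the offset. Except where a reason is given, the cause was not tested. Pygm and Pygl lay near or under background, so these arrays limit what can be seen of them.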
